A study of Mus musculus with 8 samples.

Results

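Ascending loop of Henle (ALOH) cells were followed in single-cell RNA sequencing of whole kidneys from mice, in 6 Control samples and 2 samples from kidneys with unilateral ureteric obstruction (UUO). They are the cells to which the authors gave the class name ALOH in their deposited table, 2274 of 77393 cells (2.94%). Of these, 1962 came from Control and 312 from UUO samples. All mice were C57BL/6 animals of 7 weeks, and neither a mutation nor a transgene is named. UUO is a model of kidney injury in which the outflow of urine from one kidney is blocked. The labels describe ligation of the left ureter with animals killed on day 7, in the same words for every sample. Only title and disease label set the Control samples apart, and the sources used here give neither the procedure on the Control mice nor the kidney sampled.

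The loop of Henle is the hairpin of the nephron that runs into the medulla and back. Its thick ascending limb takes up sodium, potassium and chloride through the cotransporter encoded by Slc12a1 (NKCC2, the target of loop diuretics) while staying impermeable to water, which dilutes the urine and loads the medulla with salt. The same cells make uromodulin (Umod), the most abundant protein of normal urine, and are densely packed with mitochondria that power the sodium pump. Their fluid passes on to the distal convoluted tubule (DCT), the connecting tubule (CNT) and the collecting duct. Neither marker could be looked up, since gene-level values are not analysed here, so the class name stands as the authors gave it.

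Libraries held 2263 to 18393 cells and 4375942 to 56755823 UMIs (unique transcript molecules). Those over 10000 cells were Controls 5 and 6 and both UUO samples, so every smaller library was a Control. Over all 28 classes together, a difference between the cell numbers of Controls 3 and 4 was not called at the threshold used, though only just. Their chi-square p was 0.0509, against at most 4.09e-41 for the other 14 Control pairs. For ALOH alone their shares were apart, at 11.0% (exact 95% interval 9.78 to 12.4) and 8.71% (7.85 to 9.63) of all cells. They were counted as 1 sample, leaving n = 5 Control and n = 2 UUO, for which no exact p can fall below 0.0476. Between libraries, 3 barcodes were shared by ALOH cells, none with the same UMIs and genes. Separate animals are not named in the labels, so a p-value here only sets a group difference against the spread of these samples. That spread may be technical.

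ALOH cells were a smaller part of the kidney cells recovered after obstruction. They made up 0.446% (exact 95% binomial interval 0.355 to 0.553) of the cells in UUO 1, or 82 cells, and 1.78% (1.56 to 2.02) in UUO 2, or 230 cells. In Controls 1 to 6 the share was 7.36%, 4.23%, 11.0%, 8.71%, 3.06% and 2.47%. Every Control sample lay above both UUO samples, but Control 6 was close to UUO 2, and the lowest Control shares were those of the 2 large Control libraries. The means were 1.11% ± 0.943 (SD, n = 2) in UUO and 5.33% ± 3.03 (SD, n = 5) in Control. The intervals for single libraries cover counting error only. Fewer such cells in the tissue and poorer recovery of them cannot be told apart from these numbers.

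In log2 odds the share fell by 2.45 (SE 0.842, 95% interval -4.12 to -0.79, limma adjusted p = 0.00975 over 28 classes). In that comparison 28.6% of all classes were called lower (8 of 28), 21.4% higher and 50% in either direction, so a call was common among them. ALOH had the sixth lowest value, and the median over all classes was 0.51. The two-sided exact permutation p was 0.0476, and 0.111 after Benjamini-Hochberg adjustment. The call rested on UUO 1, without which the difference was -1.45 (limma adjusted p = 0.263). Among the libraries over 10000 cells alone it was -1.64 (adjusted p = 0.128), so the size of a library moved with the share.

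**Figure D1:**
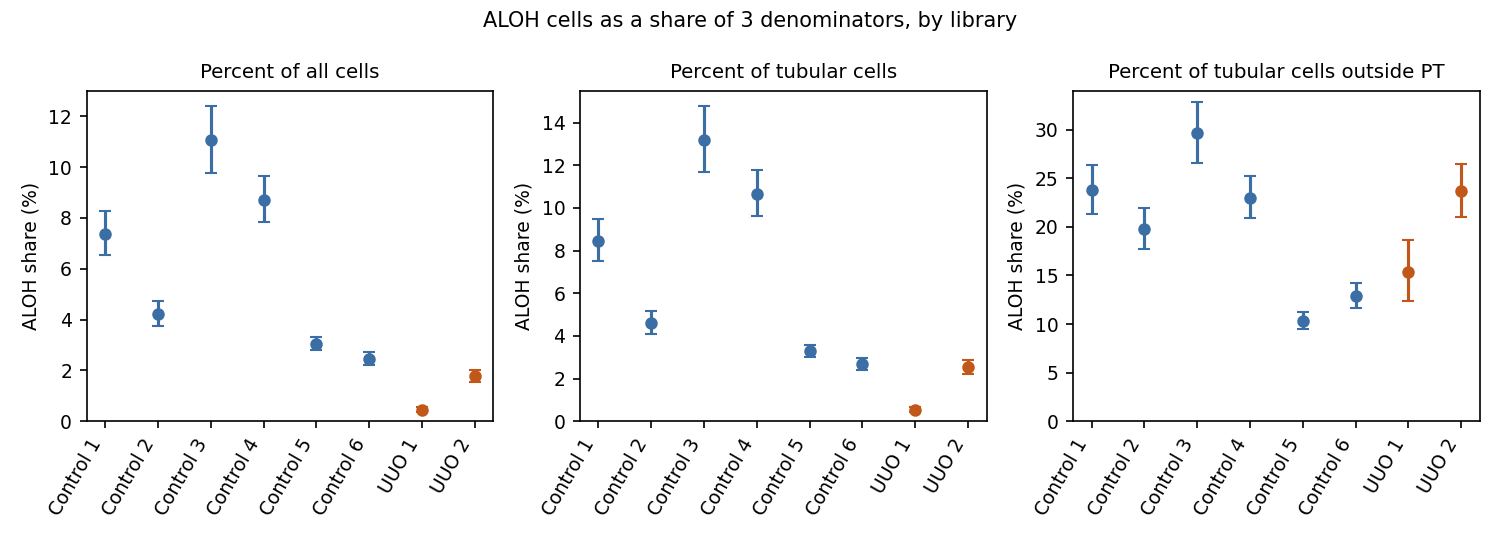
ALOH cells as a percent of all cells (left), of tubular cells (middle) and of tubular cells outside the proximal tubule class PT (right), for each library. Points are shares, bars are exact 95% binomial intervals, Control is blue and UUO orange; both UUO points lie below all Control points on the left, and inside the Control range of 10.3% to 29.7% on the right.

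A share of all cells also moves with the number of leukocytes, so ALOH cells were next set against tubular cells alone. They were 0.542% of tubular cells in UUO 1 and 2.54% in UUO 2, against 2.68% in Control 6 and 3.29% in Control 5 at the low end of the Controls and 13.2% in Control 3 at the high end. The group means were 1.54% ± 1.41 (SD, n = 2) and 6.13% ± 3.80 (SD, n = 5). The gap between UUO 2 and Control 6 was smaller than the counting interval of either. The log2 odds fell by 2.23 (SE 0.773, limma adjusted p = 0.00832 over 10 tubular classes), in a comparison where 60% of the tubular classes were called lower, 10% higher and 70% in either direction. The exact permutation p was 0.0952. The difference was -1.10 without UUO 1 (adjusted p = 0.281) and 0.11, on the other side of 0, with TMM scaling in edgeR, which centres the classes on each other. The proximal tubule class PT made up 92.9% ± 5.08 of tubular cells in UUO and 68.6% ± 9.99 in Control, so the ALOH share was taken from a denominator that PT filled to different degrees.

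Outside PT the ALOH share of the tubule did not pass the test. UUO 1 held 82 ALOH cells among 535 tubular cells outside PT, 15.3% (12.4 to 18.7), and UUO 2 held 230 among 971, 23.7% (21.0 to 26.5). The Control libraries held 23.8%, 19.8%, 29.7%, 23.0%, 10.3% and 12.9%. Both UUO samples lay inside this range, above Controls 5 and 6 and below Control 3. The means were 19.5% ± 5.91 (SD, n = 2) and 18.4% ± 6.62 (SD, n = 5). The log2 odds difference was 0.15 (SE 0.510, 95% interval -1.04 to 1.35, limma adjusted p = 0.773 over 9 classes, of which 22.2% were called lower, 11.1% higher and 33.3% in either direction). The interval holds both a lower and a higher share, and the sign turned without UUO 2 (-0.23) and without Control 5 (-0.071). This denominator also differed in make-up. The class named Profibrotic Tubules was 16.1% ± 9.70 of it in UUO and 2.20% ± 0.973 in Control. Proliferating PT cells were 12.7% ± 11.9 and 3.67% ± 4.18. DCT cells were 23.6% ± 7.51 in UUO and 33.9% ± 3.92 in Control, and CNT cells 7.50% ± 4.26 and 15.7% ± 1.58. A like share outside PT is thus not a like number relative to each class.

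The place of ALOH in the order of tubular classes was also described. Outside PT, ALOH was the second largest class in Controls 1, 2 and the pooled 3 and 4, and the fourth in Controls 5 and 6. It was the fourth in UUO 1 and the second in UUO 2. DCT was first in every sample but UUO 1. There Profibrotic Tubules (23.0%) and proliferating PT cells (21.1%) came before DCT (18.3%). In Control 5 the classes ahead of ALOH were DCT, CNT and proliferating PT cells. In Control 6 they were DCT, CNT and the principal cells of the collecting duct.

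The number of ALOH cells was then set against each other tubular class in turn, which needs no common denominator. There were 5.62 ALOH cells per 1000 PT cells in UUO 1 and 28.5 in UUO 2, against 33.8 to 237 in the Control libraries. Neither UUO library reached the lowest Control library. The log2 ratio of ALOH to PT was 2.61 lower in UUO (difference -2.61, exact permutation p = 0.0476, adjusted 0.143 over 9 classes). Against the class the authors named Profibrotic Tubules the log2 ratio was -0.58 in UUO 1 and 1.35 in UUO 2, and 2.34 to 4.60 in the Control samples. This difference of -2.71 also left the groups apart (exact permutation p = 0.0476, adjusted 0.143). Without UUO 1 the differences were -1.44 for PT and -1.75 for Profibrotic Tubules. For PT the unadjusted exact p was 0.0952 with cells of at least 1000 UMIs, with cells under 25% mitochondrial UMIs and without Control 4. It was 0.133 without Control 2 and without Control 5, where the smallest possible exact p was 0.0667.

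Against DCT and CNT, the next segments downstream, the differences had the other sign. For every 100 DCT cells, which reabsorb sodium chloride through a different cotransporter, there were 83.7 ALOH cells in UUO 1 and 81.9 in UUO 2. The Control libraries held 69.6, 62.4, 107, 71.4, 25.4 and 39.6. The UUO samples lay near the top of the Control range and overlapped it, and the log2 difference of 0.68 did not pass (exact permutation p = 0.190, adjusted 0.343). Within the libraries over 10000 cells the log2 difference was 1.38, where no exact p can fall below 0.333.

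Against CNT, ALOH cells stood higher in both UUO samples than in any Control. The log2 ratio of ALOH to CNT was 1.75 and 1.17 in UUO 1 and 2 and ran from -0.45 to 0.71 in the Control samples. The log2 difference was 1.31, or 2.47-fold (exact permutation p = 0.0476, adjusted 0.143). The unadjusted p was 0.0714 with 8 separate samples, and 0.0952 both with cells of at least 1000 UMIs and without Control 4, by the same exact test. It was 0.133 without Control 2, without Control 5 and without Control 6, where the smallest possible exact p was 0.0667. The collecting duct classes gave log2 differences of 1.09 for principal cells (CD PC), 0.98 for B-IC, 0.29 for Trans IC and -0.60 for A-IC, none at an exact p under 0.05. Proliferating proximal tubule cells (Prolif PT) gave -1.84, with exact permutation p = 0.333. Over the 9 classes 3 ratios had an exact permutation p of 0.0476, and 0 passed after adjustment, which would have needed all 9 at that value. These ratios share the ALOH counts and are not independent of each other.

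**Figure D2:**
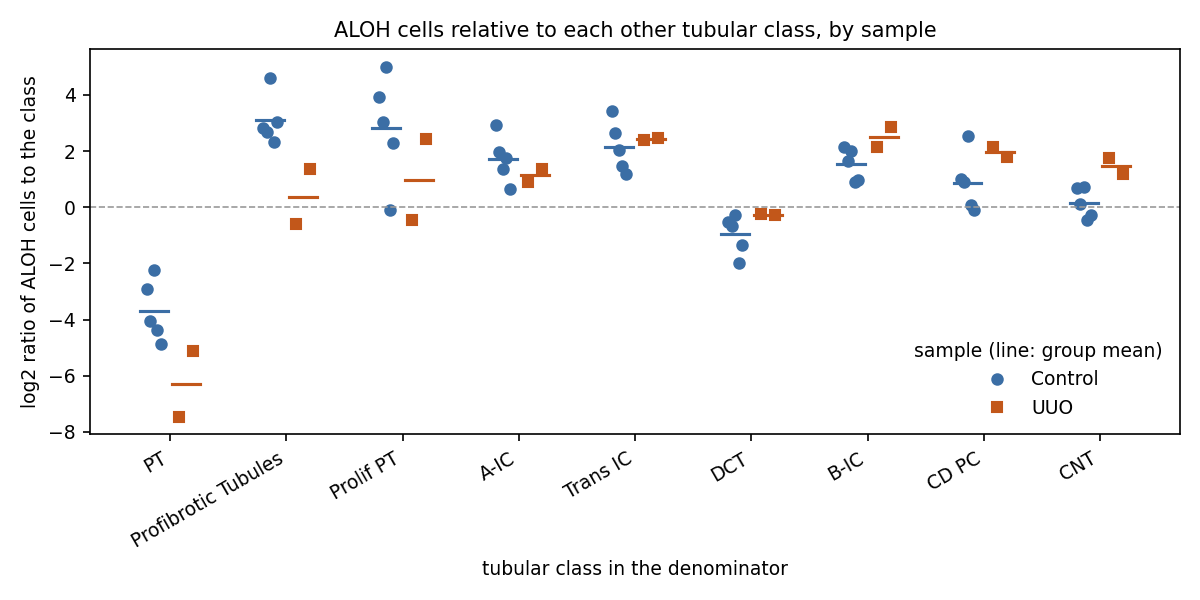
Log2 ratio of the number of ALOH cells to the number of cells of each other tubular class (vertical axis, no unit), with 1 point per sample, Controls 3 and 4 counted as 1, and a line at the group mean. UUO squares lie below all Control circles for PT and Profibrotic Tubules and above them for CNT, and the groups overlap in the other classes.

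UMIs per ALOH cell had higher medians in both UUO samples than in any Control, but the difference did not pass the adjusted test. Higher values in UUO were general, in 18 of 19 classes for UMIs and 19 of 19 for genes, with CNT at 1.86-fold for UMIs. The ALOH median was 2320 UMIs in UUO 1 and 3102.5 (interquartile range 2079.5 to 5071) in UUO 2. In Controls 1 to 6 it was 1149, 1411, 1283.5, 1392, 2312.5 and 1651. Control 5 all but reached UUO 1, and the other Control libraries lay below both. The means of the sample medians were 2711 ± 553 (SD, n = 2) and 1578 ± 448 (SD, n = 5). On the log2 scale of the fit the difference was 1.75-fold (95% interval 1.12 to 2.73, median over all classes 0.40 in log2, limma adjusted p = 0.114 over 19 classes, 10.5% of which were called). It passed without Control 5 (log2 difference 0.96 against 0.81 with it, limma adjusted p = 0.00598), and was 0.46 among the libraries over 10000 cells alone (adjusted p = 0.719).

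Genes detected per cell followed the UMIs. The sample medians were 1098.5 and 1286 genes in UUO 1 and 2 and 615, 716.5, 634, 712.5, 959.5 and 766 in Controls 1 to 6, so the groups did not overlap. On the log2 scale of the fit the difference was 1.60-fold (95% interval 1.17 to 2.20) and did not pass (limma adjusted p = 0.0642, in a comparison where 5.26% of the 19 classes were called), but did without Control 5 (adjusted p = 0.0119). Across ALOH cells within a library, UMIs and genes had a Spearman correlation of 0.960 to 0.985 over 82 to 494 cells, as both grow with the depth of each cell. In ALOH cells with 1000 to 2000 UMIs the median was 645 genes in UUO 1 (24 cells) and 682 in UUO 2 (38 cells), against 646 to 764 in the Control samples. The difference there was 0.925-fold (exact permutation p = 0.190), and in cells with 2000 to 4000 UMIs it was 1.05-fold (p = 0.286 by the same exact test). At like depth the groups thus overlapped in genes per cell.

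UMIs per cell mix the transcripts of a cell with the depth of its library. Median UMIs over all classes were 2496 and 2583.5 in the UUO libraries and 1292 to 2944 in the Control libraries, and the part of library depth in the ALOH values was not tested. As a measure within the library, the ratio of ALOH to DCT median UMIs was 1.53 in UUO 1 and 1.04 in UUO 2, and 0.672 to 1.32 in the Control samples. The groups overlapped (1.30-fold, exact permutation p = 0.333). With all other tubular classes outside PT as the reference the log2 difference was 0.043 (exact permutation p = 0.762). That reference is the median over all their cells together, so it also moves with the mix of classes, which differed between the groups. Of the 9 single classes as reference, 7 gave a higher and 2 a lower relative value in UUO, among them PT at 1.12-fold, CNT at 0.939-fold and Prolif PT at 0.898-fold. The values for CD PC, B-IC and Trans IC, all higher, rest on UUO 2 alone, as UUO 1 held fewer than 20 such cells. The value for Prolif PT rests on 3 Control samples. The reference class with an unadjusted exact p under 0.05, singled out after its values were seen, was A-IC, the acid-secreting cells of the collecting duct, at 1.56-fold. The log2 differences from A-IC were -0.48 and -0.41 in UUO 1 and 2 and -1.35 to -0.88 in the Control samples (exact permutation p = 0.0476, adjusted 0.429 over 9 classes), so the groups did not overlap.

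**Figure D3:**
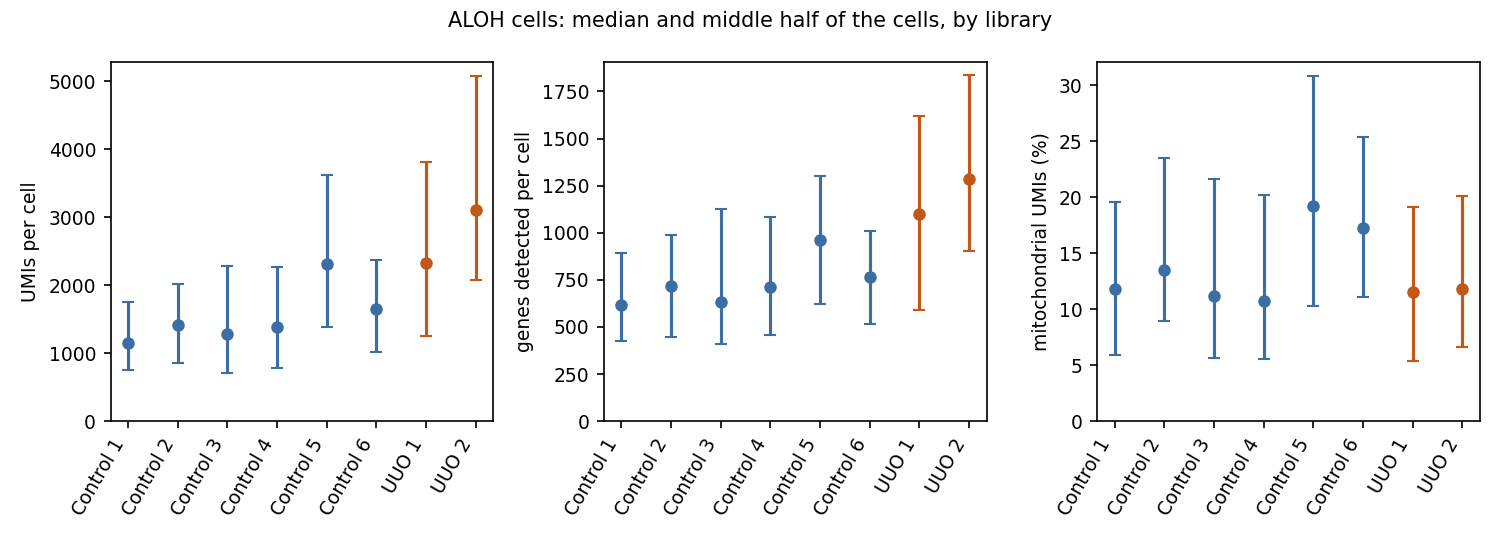
UMIs per cell (left), genes detected per cell (middle) and percent of UMIs from mitochondrial genes (right) in ALOH cells of each library, with points at the median and bars over the interquartile range of the cells. UUO medians (orange) are 2320 and 3102.5 UMIs, and the mitochondrial medians of Controls 5 and 6, 19.2% and 17.2%, stand above those of the other libraries.

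Mitochondrial transcripts, a readout both of mitochondrial content and of damaged cells that have lost cytoplasmic RNA, gave no difference between the groups that passed the test. The median was 11.5% in UUO 1 and 11.8% in UUO 2, and 11.8%, 13.5%, 11.2%, 10.7%, 19.2% and 17.2% in Controls 1 to 6. The UUO values lay among those of the 4 smaller Control libraries and below both large ones. The means were 11.7% ± 0.210 (SD, n = 2) and 14.6% ± 3.55 (SD, n = 5), a difference of -2.86 percentage points (95% interval -9.00 to 3.28, limma adjusted p = 0.887). No class of the 19 was called (0%, and 0 at an unadjusted p under 0.05). Among the libraries over 10000 cells the difference was -6.52 percentage points, with limma adjusted p = 0.0519.

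The ALOH values were also set against proximal tubule cells of the same libraries. The PT median was 15.9% and 16.0% in UUO 1 and 2 and 9.29% to 17.3% in the Control samples. The ALOH median minus the PT median was -4.31 and -4.13 percentage points in UUO 1 and 2, and -0.842 to 7.89 in the Control samples. The groups did not overlap, but the difference of -6.90 percentage points did not pass (exact permutation p = 0.0952, adjusted 0.50 over 9 classes). PT was singled out after its values were seen, and its own median differed by 4.05 percentage points, against -2.86 for ALOH. Of the 9 classes as reference, 7 gave a lower and 2 a higher relative value in UUO. The higher ones were DCT (0.83 percentage points) and CNT (2.19), with overlapping groups. The values for B-IC and Trans IC, also without overlap, rest on UUO 2 alone.

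Cells at the high end were counted as well. ALOH cells with at least 25% mitochondrial UMIs were 13.4% and 18.3% of the class in UUO 1 and 2, and 14.3% to 39.1% in the Control libraries. Control 5, the library at 39.1%, held 193 of them. ALOH cells under 1000 UMIs were 14.6% and 6.09% in UUO 1 and 2 and 14.2% to 42.6% in the Control libraries.

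In the authors' UMAP embedding, which covers the 25200 cells outside PT, nearly all ALOH cells formed a single arc. The arc held 2208 of the 2274 cells (97.1%), and DCT was the nearest class by median position. For each ALOH cell the 15 nearest cells were taken, and on average 98.1% of them were ALOH cells too, where ALOH made up 9.02% of the embedded cells. Since classes and embedding come from the same gene values, this describes the class and supports nothing about it. Coordinates have no unit, and the groupings here were drawn after seeing the plot.

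Along the arc the mitochondrial percentage changed from end to end in every library. In the arc's cells of the lowest quartile on the first axis its median was 26.2% in UUO 1 and 27.8% in UUO 2, and in the highest quartile 6.60% and 6.76%. In the Control libraries the lowest quartile held 24.4% to 37.4% and the highest 4.79% to 8.67%. The Spearman correlation of first axis and mitochondrial percent across the arc's cells was -0.64 and -0.72 in UUO 1 and 2 (75 and 223 cells) and -0.90 to -0.73 in the Control libraries (244 to 482 cells). The cells of each correlation share a library, and the genes used for the embedding are not stated.

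**Figure D4:**
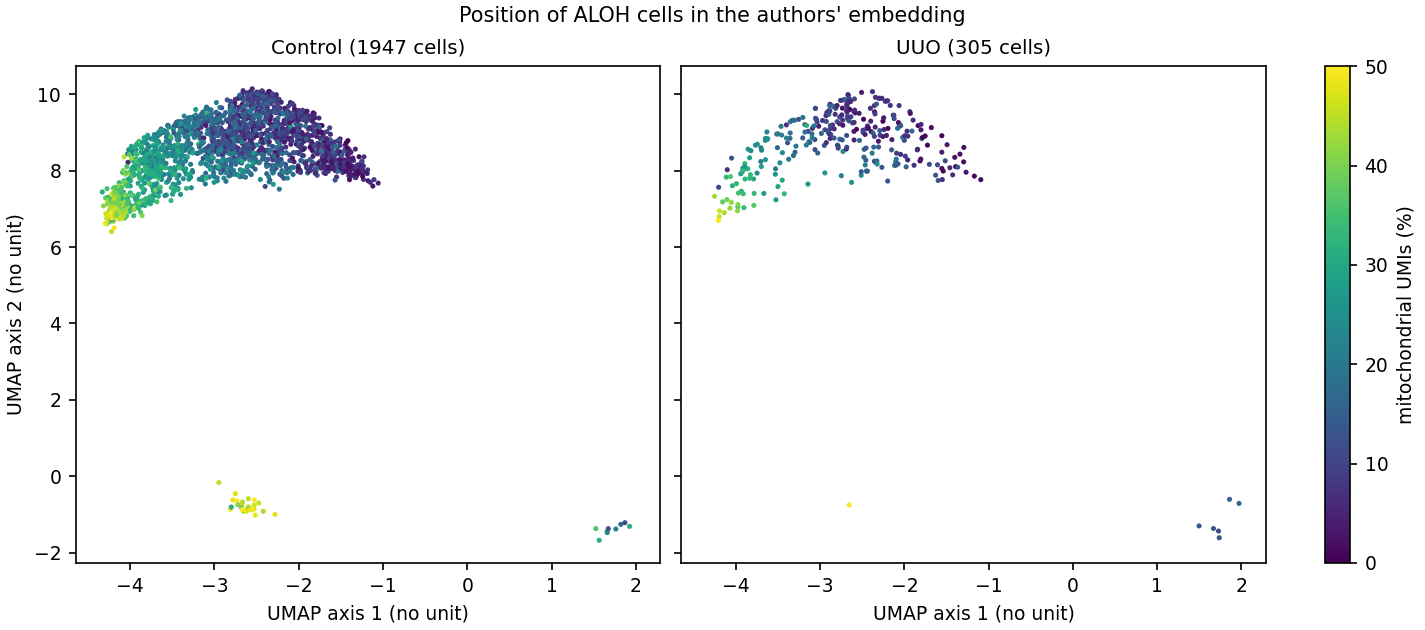
Position of ALOH cells in the authors' UMAP (both axes without unit), Control left and UUO right, coloured by the percent of UMIs from mitochondrial genes; the 22 ALOH cells lying mostly among other classes are not drawn. High percentages lie at the left end of the arc and in the small group below it, which holds 28 Control cells and 1 UUO cell.

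Beside the arc lay 2 small groups and some scattered cells. The lower left group had 29 cells, 28 of them from Control libraries, which held 1962 of the 2274 ALOH cells. It had 1 to 8 cells in each Control library, 0 in UUO 1 and 1 in UUO 2, with a median of 935 UMIs, 355 genes and 46.5% mitochondrial UMIs, the highest of any part of the class. The lower right group had 15 cells with a median of 4884 UMIs and 16.5% mitochondrial UMIs, 9 from Controls 5 and 6 and 6 from the UUO samples, with none from the 4 smaller libraries. Among the 15 nearest neighbours of its cells, 72.4% were ALOH cells, 24.9% CNT cells and 0.444% proliferating PT cells. With ALOH cells left out, proliferating PT cells were 78.5% of the 200 cells nearest to the group's median position. A further 22 ALOH cells had fewer than 50% ALOH cells among their 15 neighbours.

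Those 22 cells were 3.66% of the class in UUO 1 (3 cells) and 1.74% in UUO 2 (4 cells), and 0.297% to 1.10% in the Control samples. The groups did not overlap (difference 1.98 percentage points, exact permutation p = 0.0476), yet Control 4 counted alone held 1.45%, and the UUO values rest on 7 cells. Without UUO 1 the difference was 1.02 percentage points. With only cells of at least 1000 UMIs it was 1.76 percentage points (exact permutation p = 0.143).

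ALOH cells of the UUO samples lay slightly apart from those of the Controls. The median on the second axis was 8.70 and 8.83 in UUO 1 and 2 and 8.51 to 8.62 in the Control samples, so the groups did not overlap. The group means of the median positions lay 0.207 apart (exact permutation p = 0.0476, one-sided by construction). Depth moved with this position in the UUO and the 4 smaller Control libraries, and little in Controls 5 and 6. Cells in the highest quartile of the arc on the second axis had a median of 3658 and 3873 UMIs in UUO 1 and 2, and those in the lowest quartile 1107 and 2136. In Control 5 these medians were 2578 and 2350 UMIs, and in Control 6 they were 1707 and 1256. The Spearman correlation of second axis and log2 UMIs was 0.080 and 0.13 in Controls 5 and 6 and 0.38 to 0.62 in the other libraries, and that with mitochondrial percent was -0.65 to -0.40 over all 8. The part of either in the shift was not tested. In arc cells with 1000 to 2000 UMIs the order was turned, with 8.27 and 8.17 in UUO 1 and 2 against 8.42 to 8.92 in the Control samples (difference -0.53, exact permutation p = 0.0476). With 2000 to 4000 UMIs the difference was 0.073 (p = 0.714 by the same exact test).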

How the data were processed

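Whole-kidney 10x Genomics Chromium 3′ libraries were made per the labels' protocols. Cell Ranger 6.0.1, Seurat 4.0.1 and build mm10 are named in the submitters' processing notes. The cell filters and the settings behind classes and embedding are not stated there. UMIs and genes per cell are raw counts as deposited by the authors. The mitochondrial value is a percent of a cell's UMIs, per the file headers. UMAP coordinates are a score without unit, as deposited by the authors.

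ALOH cells were all cells of that class name, with samples taken from the titles. The class and the comparison lists were chosen with earlier results of these data known. The classes named are ALOH and the other 9 tubular classes. Shares were fitted over all classes with limma 3.58.1 in R 4.3.3 on log2((n + 0.5)/(N - n + 0.5)), and sample medians over the 19 classes that reached 20 cells in 2 or more samples per group, at a Benjamini-Hochberg adjusted p of 0.05. For shares of all and of tubular cells the variance prior took over fully (140 and 50 degrees of freedom), so those standard errors are shared by all classes and may be too small. Single values were tested by exact permutation over samples, two-sided, with adjustment over the 9 classes for ratios. UMIs relative to A-IC, mitochondrial percent relative to PT, the neighbour counts, the parts of the embedding, the limits to UMI windows there and the setting without Controls 3 and 4 were chosen after seeing the data. No doublet caller was run. Only the fit of shares was tested on simulated data, with drawn cell numbers per class. Alternatives included edgeR 4.0.16, other scales, cell filters, unpooled samples and leaving out each sample. No per-sample column was left out (0).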

Additional observations from a re-analysis of the deposited data

How the results depend on the processing

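The fall in the share of all cells kept its direction under all 20 alternatives and was lost with exact tests (-2.45, adjusted p = 0.111), with only libraries over 10000 cells (-1.64) and without UUO 1, with a range of -3.46 to -1.45 when each sample was left out. The share of tubular cells lost its call on the arcsine scale (-0.124), with centred log-ratios (-0.34), edgeR with sample totals (-1.99), exact tests (-2.23), large libraries (-1.35) and the replicate block (-2.48), and reversed with TMM scaling (0.11), with leave-one-out values of -3.35 to -1.10. The share outside PT reversed with centred log-ratios (-0.089) and the replicate block (-0.22) and ran from -0.23 to 0.54 with samples left out. UMIs per cell passed with 8 separate samples (0.85), cells under 25% mitochondrial UMIs (0.94), cells of at least 1000 UMIs (0.65) and the replicate block (1.07), and ran from 0.60 to 1.02 with samples left out. Genes per cell passed with 8 separate samples (0.71), a minimum of 10 cells (0.68) and cells under 25% mitochondrial UMIs (0.68), with 0.57 to 0.80 left out. Genes at matched UMIs reversed in the window of 2000 to 4000 UMIs (0.075). The distance in the embedding lost its call with mean coordinates (0.240), cells under 25% mitochondrial UMIs (0.140), cells of 2000 to 4000 UMIs (0.285), cells of at least 1000 UMIs (0.136), large libraries (0.214) and without Controls 3 and 4 (0.211), and ran from 0.147 to 0.272. The cause of these changes was not tested, except that fewer samples raise the smallest exact p to 0.0667 without a Control, 0.167 without a UUO sample and 0.333 in the large libraries. The sample number as a block rests on numbers 1 and 2 alone, which no label ties to an animal or batch (deviations of same-numbered samples correlated at -0.25 and -0.0037 over classes), and it changed the call only where named here.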
